A study of Mus musculus with 9 samples.

Results

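The genes described here encode proteins of synaptic vesicles and the SNARE machinery that fuses vesicles with their target membrane. They were chosen by name: the numbered or lettered gene symbols of the synaptotagmin, SV2, synapsin, syntaxin, syntaxin-binding, VAMP, complexin, synaptogyrin and Rab3 families, with Snap23, Snap25, Snap29, Snap47, Snap91 and Syp, wherever a probe set carried exactly 1 gene symbol. This gave 66 genes among the 28815 probe sets of the arrays, with 1 probe set per gene, the one with the highest mean over the 9 arrays. Of the 66, 64 had a mean at or above the filter used for testing (log2 5.63, the 25th percentile of all probe sets), and Cplx4 and Stx19 lay below it. Vamp2, the main vesicle SNARE of the forebrain, shared its probe set with another gene and is not analysed here. The choice used no measured difference between groups.

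Neurotransmitter is released when a SNARE protein on the vesicle (a VAMP) zips together with SNAREs on the plasma membrane (a syntaxin and a SNAP protein) and draws both membranes into one. Synaptotagmins on the vesicle sense calcium and trigger the last step, complexins hold the assembled complex ready, and syntaxin-binding proteins guide its assembly. Synapsins tether vesicles in the reserve pool, Rab3 proteins help them dock, and SV2, synaptophysin and synaptogyrin proteins are abundant vesicle membrane proteins. In striatum most of these transcripts come from local neurons, chiefly the GABA-releasing projection neurons, while the cell bodies of dopamine axons lie in the midbrain and those of glutamate axons in cortex and thalamus.

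The samples were total RNA of mouse striatum, 3 arrays per group, and the study compared saline with 2 regimens of MPTP, a toxin that damages dopamine neurons. The acute group received MPTP (named free base MPTP HCl, given intraperitoneally) 4 times, 2 h apart, at 20 mg/kg, which is 80 mg/kg in total, and was sampled 1 week later. The chronic group received 4 mg/kg each day over 20 days, again 80 mg/kg in total, and was sampled 8 weeks later. Controls received saline 4 times, 2 h apart, and were sampled 1 week later, so a chronic group difference joins regimen and time, which cannot be told apart. Strain, age and sex of the mice are not stated in the labels used here, and neither is whether each array is a separate animal, so the spread between arrays may be partly technical. With 3 arrays per group, precision is limited by their number.

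The mean log2 level of the 13 tested genes of the striatal projection neuron list lay between 10.90 and 11.74 over the arrays, where array medians were 6.85 to 6.90. It ran from 10.90 to 11.49 in controls, from 11.38 to 11.42 in the acute group and from 11.56 to 11.74 in the chronic group. These 13 had passed the filter on the mean, so that they were measured is no test of the tissue. Genes of neighbouring tissue varied between arrays. The mean of 14 tested genes of cortical glutamatergic neurons ranged from 7.68 to 8.96 in controls, 7.56 to 8.88 in the acute group and 7.44 to 7.85 in the chronic group, and it was highest on control 1, acute 2 and acute 1. That of 15 tested genes of thalamus, septum and hypothalamus ranged from 7.81 to 9.52, from 7.47 to 8.89 and from 7.53 to 8.22, and that of 12 tested choroid plexus genes from 6.30 to 7.81, from 6.44 to 8.58 and from 6.62 to 7.08; both were highest on control 3 and acute 3. These levels move with several results below, where values with and without the arrays concerned are given.

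None of the 64 tested vesicle and SNARE genes passed the threshold (adjusted p under 0.05 in limma, over 17480 probe sets) in any of the 3 comparisons. Of all probe sets, 0% passed in acute against control, 0% in chronic against control and 0.0114% in chronic against acute. The smallest adjusted p of a member in limma was 1, 0.9 and 0.873, and 0.974, 0.261 and 0.242 with the replicate number as a block. At an unadjusted p under 0.05 there were 0 members in acute against control, where 0.932% of all probe sets reached it (0.492% higher, 0.441% lower). In chronic against control there were 9 of 64 (14.1%), 3 of them higher and 6 lower, where 5.38% of all probe sets reached it (2.76% higher, 2.62% lower). In chronic against acute there were 10 (15.6%), 4 higher and 6 lower, where 5.11% did (2.32% higher, 2.79% lower). With the replicate number as a block the members were 4 (6.25%, against 4.28% of all probe sets), 16 (25%, against 12.7%) and 18 (28.1%, against 13.7%). Over all 64 members the median log2 difference was -6.3e-05, -0.038 and -0.050 in the 3 comparisons in that order, beside 0.0057, -0.011 and -0.017 for all probe sets tested. In chronic against control 28 members were higher and 36 lower, where 46.6% and 53.4% of all probe sets were. The larger differences belonged to single genes, as the map of all members by array shows.

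**Figure D1:**
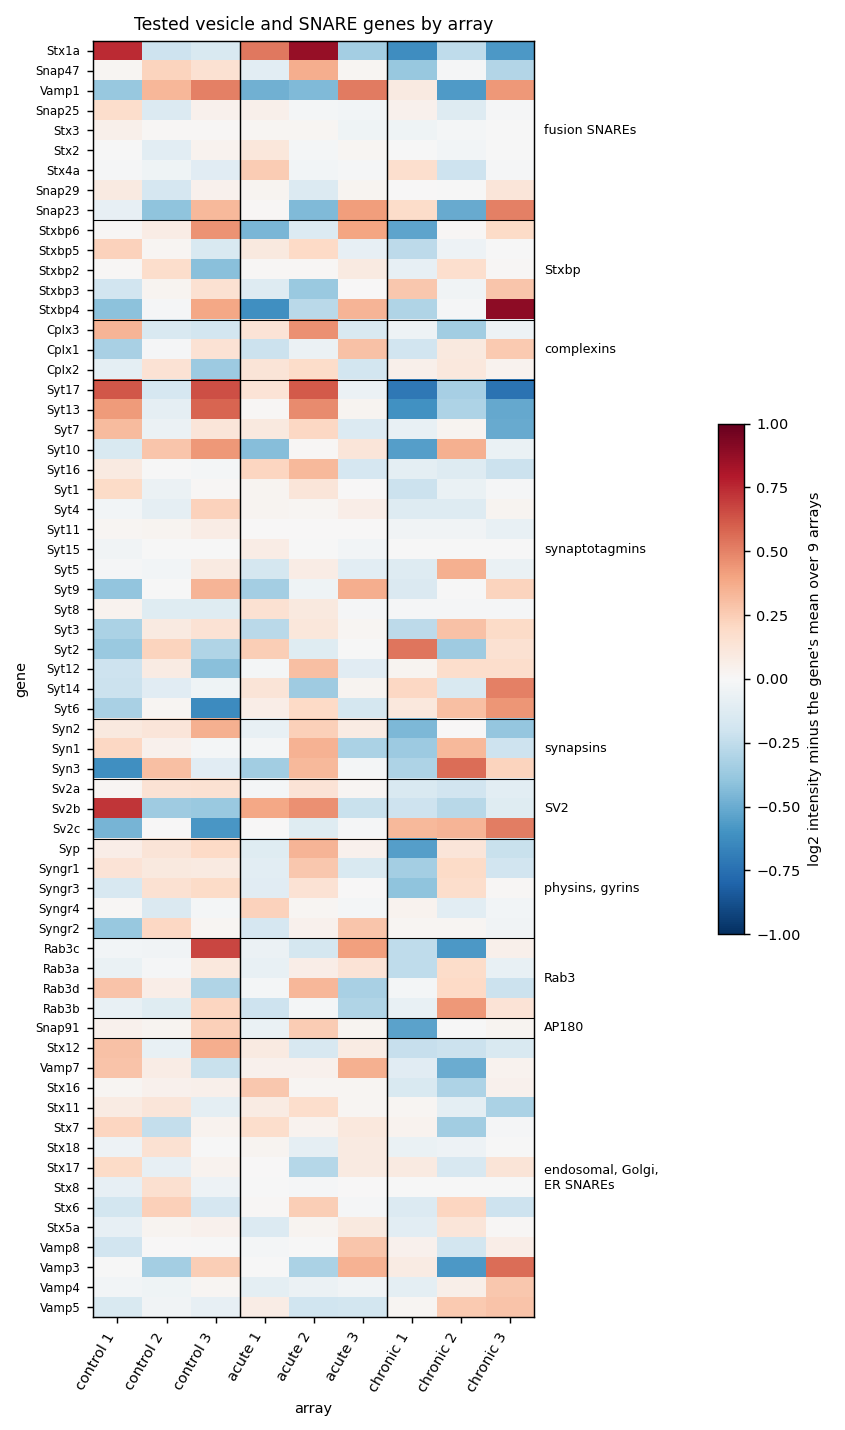
Log2 intensity of each of the 64 tested genes (rows, grouped by role) on each of the 9 arrays (columns), as the difference from the gene's own mean over all arrays; red is higher and blue lower. The strongest colours belong to few genes, among them Stx1a, Sv2b, Syt13, Syt17 and Sv2c, and many rows change colour from one array of a group to the next.

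The SV2 proteins are transporter-like glycoproteins of the vesicle membrane, and the patterns of the 3 over the arrays were not alike. Sv2c is the member concentrated in the basal ganglia. It read 10.01, 10.48 and 9.90 in controls, 10.48, 10.36 and 10.47 in the acute group and 10.81, 10.82 and 10.99 in the chronic group, in log2 intensity. Every chronic array lay above every control and every acute array. Chronic against control gave a log2 difference of 0.74 ± 0.14 (SE, 3 arrays per group), a 1.67-fold higher level, with an unadjusted p of 0.000572 and adjusted p = 0.9 in limma. Between arrays of the same number it was 0.79, 0.34 and 1.09. With the means of the cortical and the thalamic lists as covariates it was 0.44. Leaving out the 3 arrays with the most cortex signal gave 0.68, and leaving out the 2 with the most choroid plexus signal 0.62.

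Sv2a, the SV2 protein found in most synapses and the target of the antiseizure drug levetiracetam, lay on the other side. Its values were 11.83, 11.96 and 11.97 in controls, 11.80, 11.95 and 11.84 in the acute group and 11.66, 11.63 and 11.71 in the chronic group. All chronic arrays were below all others, although the distance was small, at -0.26 ± 0.081 from control (1.19-fold lower, unadjusted p = 0.0112, adjusted p = 0.9 in limma). With the tissue covariates it was -0.25. Sv2b, the member prominent in cortical glutamatergic neurons, read 12.38, 11.30 and 11.29 in controls, 12.05, 12.12 and 11.44 in the acute group and 11.45, 11.38 and 11.54 in the chronic group. The 3 high arrays were control 1, acute 1 and acute 2, the same that were high in cortex genes, and the groups overlapped.

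The promoters of 4 genes are printed below to show what surrounds their starts. Sv2c and Syt6 had the largest positive differences in chronic against control. Syn2 and Stx1a lay lower on all chronic arrays than in controls, with the largest negative differences after Syt17 and Syt13, which had no promoter in the RefSeq table. Each window runs from 250 bases before to 50 bases after the start that RefSeq annotates in GRCm38.p6, and where a gene has several starts (3 for Syt6, 2 for Syn2) the most upstream is shown. Capitals mark matches, on either strand, to GGGCGG (the GC box), TGACG (the core of a cAMP response element), its full form TGACGTCA, which contains TGACG, GCGNGGGCG (an EGR motif, which shares letters with the GC box) and TATAAA.
Sv2c, chr13:96132528-96132827, minus strand: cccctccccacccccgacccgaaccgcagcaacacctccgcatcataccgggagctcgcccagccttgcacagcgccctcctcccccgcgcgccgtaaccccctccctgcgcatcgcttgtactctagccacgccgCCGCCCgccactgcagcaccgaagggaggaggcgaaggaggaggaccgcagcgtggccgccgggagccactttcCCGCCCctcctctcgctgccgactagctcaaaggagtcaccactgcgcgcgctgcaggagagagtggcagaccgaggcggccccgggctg
Syt6, chr3:103574995-103575294, plus strand: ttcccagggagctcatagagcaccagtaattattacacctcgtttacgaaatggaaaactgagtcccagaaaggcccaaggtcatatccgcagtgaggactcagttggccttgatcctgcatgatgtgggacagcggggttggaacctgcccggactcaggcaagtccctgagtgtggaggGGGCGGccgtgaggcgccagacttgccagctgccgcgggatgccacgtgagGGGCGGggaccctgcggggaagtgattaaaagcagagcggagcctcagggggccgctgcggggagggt
Syn2, chr6:115134652-115134951, plus strand: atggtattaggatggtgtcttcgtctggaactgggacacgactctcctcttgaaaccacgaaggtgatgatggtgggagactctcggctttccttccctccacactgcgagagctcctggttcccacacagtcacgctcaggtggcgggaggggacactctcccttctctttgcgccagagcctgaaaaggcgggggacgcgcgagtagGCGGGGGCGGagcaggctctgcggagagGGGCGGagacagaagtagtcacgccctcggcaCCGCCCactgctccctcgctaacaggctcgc
Stx1a, chr5:135023232-135023531, plus strand: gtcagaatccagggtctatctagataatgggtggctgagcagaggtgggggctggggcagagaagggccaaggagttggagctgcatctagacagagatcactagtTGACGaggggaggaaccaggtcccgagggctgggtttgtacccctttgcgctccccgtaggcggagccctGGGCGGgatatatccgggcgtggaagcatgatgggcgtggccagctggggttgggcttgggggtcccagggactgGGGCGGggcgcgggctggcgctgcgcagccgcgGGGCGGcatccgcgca
All 4 windows hold GC boxes, 2 in Sv2c and in Syt6 and 3 in Syn2 and in Stx1a. The Syn2 window also holds 1 match to the EGR motif, overlapping a GC box, and that of Stx1a 1 TGACG. None of the 4 holds TATAAA or the full TGACGTCA. Of the 64 tested members 52 had a promoter in the RefSeq table, and 40 of these (76.9%) held a GC box against 35.9% of 27025 genes, with a median GC content of 64.2% against 52.7%. The 27025 are all genes of that table, whether or not they were measured here or passed the filter. The 52 had all passed it, so whether the gaps are particular to vesicle genes cannot be told from these values. TATAAA stood in 5.77% of member promoters and 14.2% of all, TGACG in 28.8% and 20.9%, the EGR motif in 11.5% and 5.53%, and TGACGTCA in 3.85% and 1.85%. These letters describe the windows and were not tested against the expression values.

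All 17 synaptotagmins measured were above the filter, and in chronic against control 9 were higher and 8 lower, with log2 differences from -0.96 to 0.60. In the fit with the tissue covariates 7 were higher and 10 lower. Syt17, a synaptotagmin-related protein of neuronal membrane trafficking, read 9.17, 8.38 and 9.20 in controls, 8.69, 9.16 and 8.49 in the acute group and 7.84, 8.22 and 7.81 in the chronic group. All chronic arrays lay below the rest. The difference was -0.96 ± 0.25 (1.95-fold lower, unadjusted p = 0.00354, adjusted p = 0.9 in limma), and it was -1.34, -0.16 and -1.38 between arrays of the same number, small between those numbered 2. Syt13, which lacks the residues that bind calcium, followed it closely, at 10.07, 9.55 and 10.23 in controls, 9.66, 10.11 and 9.67 in the acute group and 9.04, 9.34 and 9.13 in the chronic group. Again no chronic array reached the lowest of the others. The difference from control was -0.78 ± 0.19 (1.72-fold lower, unadjusted p = 0.00251, adjusted p = 0.9 in limma). With the tissue covariates Syt17 was at -0.34 and Syt13 at -0.30. Leaving out the 3 arrays with the most cortex signal put them at -0.83 and -0.72, and leaving out the 2 with the most choroid plexus signal at -0.82 and -0.64.

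Syt6, a calcium-binding synaptotagmin best known from exocytosis in sperm, was the highest synaptotagmin by difference. It read 9.37, 9.72 and 9.07 in controls, 9.77, 9.90 and 9.52 in the acute group and 9.80, 9.996 and 10.14 in the chronic group. The chronic and control arrays did not overlap, with a difference of 0.60 ± 0.17 (1.51-fold higher, unadjusted p = 0.00691, adjusted p = 0.9 in limma) that was 0.41 with the tissue covariates. Syt12 and Syt14, both without calcium binding, had positive differences of 0.31 ± 0.15 and 0.31 ± 0.18 with overlapping groups and adjusted p = 0.938 and 0.96 in limma. With the tissue covariates they were at 0.20 and 0.12. Syt12 was at 0.19 without control 3, and Syt14 at 0.15 without chronic 3.

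Among the calcium sensors of fast release no group separated from the controls. Syt1, the sensor of most forebrain synapses, lay at 13.10, 12.84 and 12.92 in controls, 12.93, 13.03 and 12.91 in the acute group and 12.69, 12.84 and 12.89 in the chronic group. The chronic arrays overlapped the controls and lay just below all acute arrays. Syt2, a fast sensor of hindbrain and interneuron synapses, ran from 7.59 to 8.50 over the 9 arrays with wide overlap. Its chronic against control difference of 0.26 ± 0.23 was 0.91, -0.58 and 0.45 between arrays of the same number and -0.28 with the tissue covariates. Syt9, another fast sensor, ran from 8.21 to 8.97 and differed by 0.046 ± 0.22. Syt7, the slow high-affinity sensor, ran from 9.35 to 10.17, lowest on chronic 3 and highest on control 1. Syt11, a synaptotagmin without calcium binding that acts in endocytosis, read 12.40, 12.41 and 12.45 in controls. It read 12.38, 12.38 and 12.38 in the acute group and 12.34, 12.34 and 12.30 in the chronic group. Acute 1 and acute 2 held the same value (12.3802) and acute 3 was at 12.3807, so the small acute spread may not be that of independent readings. Syt11 was the 1 member whose acute arrays all lay apart from the controls, by -0.037 ± 0.068. That difference was -0.021 without control 3 and 0.016 after quantile normalization. Syt16, also without calcium binding, was lower on all chronic arrays than in controls, by -0.17 ± 0.12. The other synaptotagmins, Syt3, Syt4, Syt5, Syt8, Syt10 and Syt15, lay between -0.27 (Syt10) and 0.10 (Syt3) in chronic against control, with overlapping groups.

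**Figure D2:**
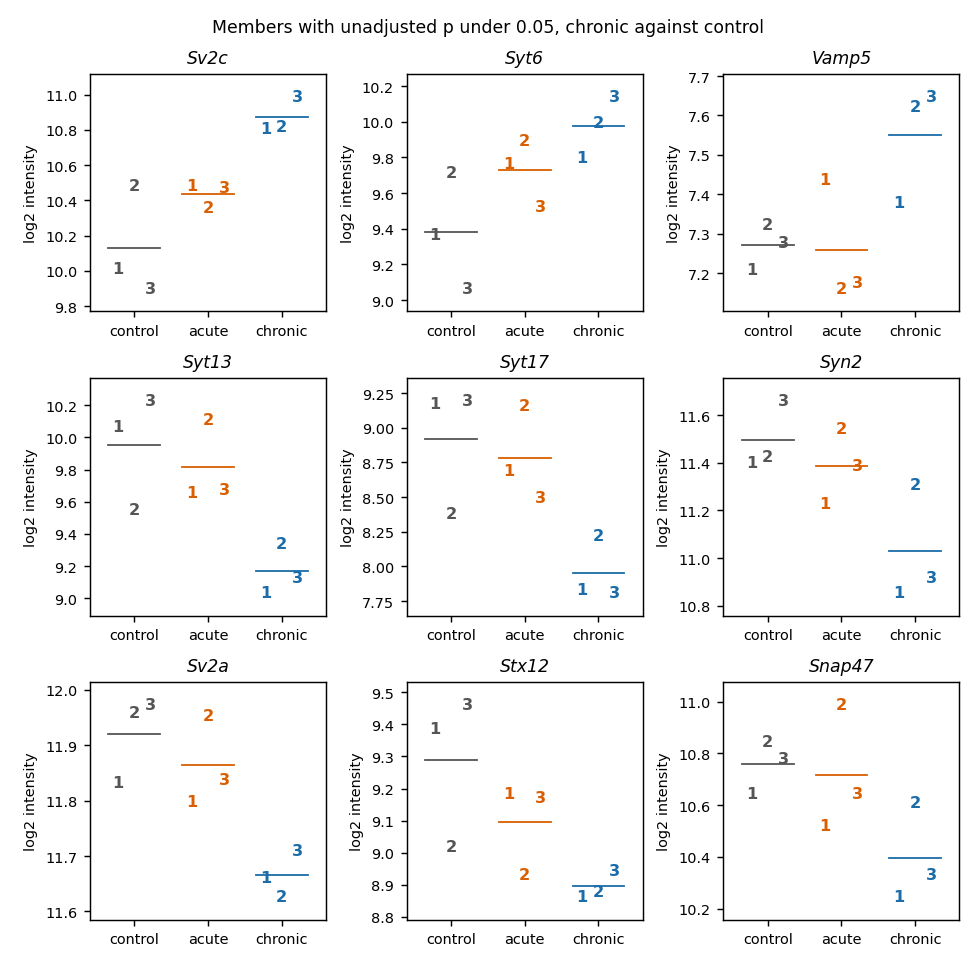
Log2 intensity (vertical axes, a scale of its own for each gene) of the 9 genes with an unadjusted p under 0.05 in chronic against control. Digits are arrays by replicate number, lines are group means of 3 arrays; in each panel the 3 chronic arrays lie all above (Sv2c, Syt6, Vamp5) or all below (the other 6) the 3 controls.

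The 3 synapsins, phosphoproteins of the reserve pool, did not share a pattern. Syn2 read 11.40, 11.43 and 11.66 in controls, 11.23, 11.54 and 11.39 in the acute group and 10.86, 11.31 and 10.92 in the chronic group. Its chronic arrays lay below all controls, by -0.47 ± 0.14 (1.38-fold lower, unadjusted p = 0.00879, adjusted p = 0.9 in limma), and by -0.24 with the tissue covariates. Syn1, the most studied synapsin, read 12.02, 11.85 and 11.79 in controls, 11.79, 12.16 and 11.49 in the acute group and 11.44, 12.13 and 11.60 in the chronic group, and its groups overlapped. Syn3, the synapsin of developing neurons, read 8.97, 9.88 and 9.47 in controls, 9.24, 9.91 and 9.57 in the acute group and 9.28, 10.15 and 9.81 in the chronic group. These groups overlapped, yet on each replicate number the chronic array was above the control, by 0.30, 0.26 and 0.34. The difference of 0.30 ± 0.28 had an unadjusted p of 0.311 without the block and 0.0037 with it, and adjusted p = 0.974 and 0.262 in limma. It was 0.068 without control 1 and 0.10 without chronic 2.

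Among the 9 SNAREs of the plasma membrane and the vesicle, 4 were higher and 5 lower in chronic against control, with a median log2 difference of -0.045. Snap25, the neuronal SNAP protein, ranged from 13.31 to 13.62, with means of 13.47 ± 0.16 in controls, 13.45 ± 0.044 in the acute group and 13.41 ± 0.088 in the chronic group (SD, n = 3). Its partner Stx1a read 9.33, 8.37 and 8.42 in controls, 9.10, 9.45 and 8.24 in the acute group and 7.96, 8.32 and 8.00 in the chronic group. The chronic arrays were below all controls, and nearly level with them on the arrays numbered 2 (-0.044), while control 1, acute 1 and acute 2 stood well above the rest. Chronic against control was -0.61 ± 0.33 (adjusted p = 0.944 in limma), -0.18 with the tissue covariates and -0.30 without the 3 arrays with the most cortex signal, or -0.30 without control 1 alone. Vamp1, a vesicle SNARE of fast synapses, read 9.24, 9.95 and 10.12 in controls, 9.14, 9.18 and 10.14 in the acute group and 9.71, 9.05 and 10.05 in the chronic group. Its SD within each group, 0.47, 0.57 and 0.51, exceeded every difference of group means. Chronic against control was -0.17 ± 0.35 for Vamp1, or -0.49 ± 0.25 with the tissue covariates. Snap47, a widely expressed SNAP-25 relative, read 10.65, 10.85 and 10.78 in controls, 10.52, 10.99 and 10.65 in the acute group and 10.25, 10.61 and 10.33 in the chronic group. Its chronic arrays lay below all controls, by -0.36 ± 0.14 (1.28-fold lower, unadjusted p = 0.0301, adjusted p = 0.918 in limma). Snap23, the SNAP protein of non-neuronal exocytosis, Snap29, Stx2 and Stx4a all overlapped between groups. Stx3, a syntaxin of apical and ribbon-synapse membranes, was lower on all chronic arrays than in controls, but only by -0.045 ± 0.069.

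SNAREs of endosomes, Golgi and endoplasmic reticulum serve traffic inside the cell, and 14 of 15 were tested. In chronic against control 5 were higher and 9 lower, with a median log2 difference of -0.022. Stx12, a syntaxin of recycling endosomes, read 9.39, 9.02 and 9.46 in controls, 9.19, 8.93 and 9.17 in the acute group and 8.86, 8.88 and 8.94 in the chronic group. The chronic values were close together and below all controls, by -0.39 ± 0.13 (1.31-fold lower, unadjusted p = 0.0118, adjusted p = 0.9 in limma), and by -0.24 with the tissue covariates. Vamp5, a VAMP best known from muscle, was the only one of the 14 with a positive difference at an unadjusted p under 0.05. It read 7.21, 7.32 and 7.28 in controls, 7.44, 7.16 and 7.18 in the acute group and 7.38, 7.62 and 7.65 in the chronic group. All chronic arrays lay above all controls, with a difference of 0.28 ± 0.11 (1.21-fold higher, unadjusted p = 0.0286, adjusted p = 0.918 in limma), but acute 1 lay above chronic 1. Stx8, a syntaxin of late endosomes, ranged from 8.04 to 8.29, and Stx18 and Stx5a, which act between endoplasmic reticulum and Golgi, from 7.70 to 7.94 and from 9.19 to 9.45. The remaining 9, Stx6, Stx7, Stx11, Stx16, Stx17, Vamp3, Vamp4, Vamp7 and Vamp8, were between -0.24 (Vamp7) and 0.094 (Vamp4), and their chronic and control arrays overlapped. With the tissue covariates Vamp7 was at -0.41.

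The remaining families showed smaller or overlapping differences in chronic against control. Rab3c read 10.33, 10.33 and 11.03 in controls, 10.30, 10.18 and 10.77 in the acute group and 10.10, 9.79 and 10.41 in the chronic group. The groups overlapped, but within each replicate number the chronic array was below the control, by -0.22, -0.54 and -0.62. Its difference of -0.46 ± 0.24 had an unadjusted p of 0.0844 without the block and 0.000815 with it (adjusted p = 0.94 and 0.261 in limma), and it was -0.23 without control 3 and -0.30 without chronic 2. Rab3a, the most abundant Rab3 protein of brain vesicles, read 10.67, 10.73 and 10.84 in controls, 10.66, 10.80 and 10.87 in the acute group and 10.48, 10.92 and 10.66 in the chronic group, with no separation of the groups. In the Rab3 family 1 gene was above and 3 were below control, Rab3d by -0.029. The gene above was Rab3b, at 0.16 ± 0.15, or 0.44 ± 0.16 with the tissue covariates, and its chronic and control arrays overlapped. Syp, the classical vesicle marker synaptophysin, read 11.52, 11.58 and 11.65 in controls, 11.33, 11.80 and 11.50 in the acute group and 10.91, 11.58 and 11.23 in the chronic group. Its difference of -0.34 ± 0.17 (adjusted p = 0.94 in limma) was -0.18 without chronic 1, the lowest array, and -0.097 with the tissue covariates. The 4 synaptogyrins, relatives of Syp, were at -0.22 (Syngr1), 0.057 (Syngr2), -0.13 (Syngr3) and 0.018 (Syngr4), and none separated the groups. Cplx2, one of the main forebrain complexins, read 10.42, 10.66 and 10.15 in controls, 10.64, 10.70 and 10.33 in the acute group and 10.56, 10.62 and 10.55 in the chronic group. Its groups overlapped, as did those of Cplx1 and Cplx3, whose values follow below. Of the syntaxin-binding proteins 3 were above and 2 below control, from -0.29 for Stxbp6 to 0.20 for Stxbp4, with overlap in all 5. Snap91, the clathrin adaptor AP180 that retrieves vesicle membrane, read 11.18, 11.17 and 11.38 in controls and 10.61, 11.14 and 11.17 in the chronic group, so that control 2 and chronic 3 were level to the second decimal.

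Over the whole set, chronic and control arrays did not overlap for 14 of 64 genes. Higher on all chronic arrays were 3 (4.69%), where 2.8% of all probe sets were, and lower were 11 (17.2%), where 3.52% were. The 11 were Snap47, Snap91, Stx12, Stx1a, Stx3, Sv2a, Syn2, Syt11, Syt13, Syt16 and Syt17. Over the same arrays all 13 striatal projection neuron markers were higher in the chronic group, with a median of 0.52, while 10 of 14 cortical markers and 14 of 15 thalamic, septal and hypothalamic markers had lower means, with medians of -0.43 and -0.41. The part of tissue make-up in these differences was not tested beyond the covariate fit, which held the cortical and thalamic lists and not the striatal one. In that fit 4 members had an unadjusted p under 0.05, where 332 of all 17480 probe sets tested did. Without the covariates 9 members and 941 probe sets did. The 4 were Sv2c and Rab3b, higher, and Syt13 and Syt17, lower, and Rab3b was not among the 9. The covariates also widened some standard errors: that of Sv2a went from 0.081 to 0.12, with differences of -0.26 and -0.25. In bulk tissue, fewer cells of a type and less RNA per cell cannot be told apart.

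**Figure D3:**
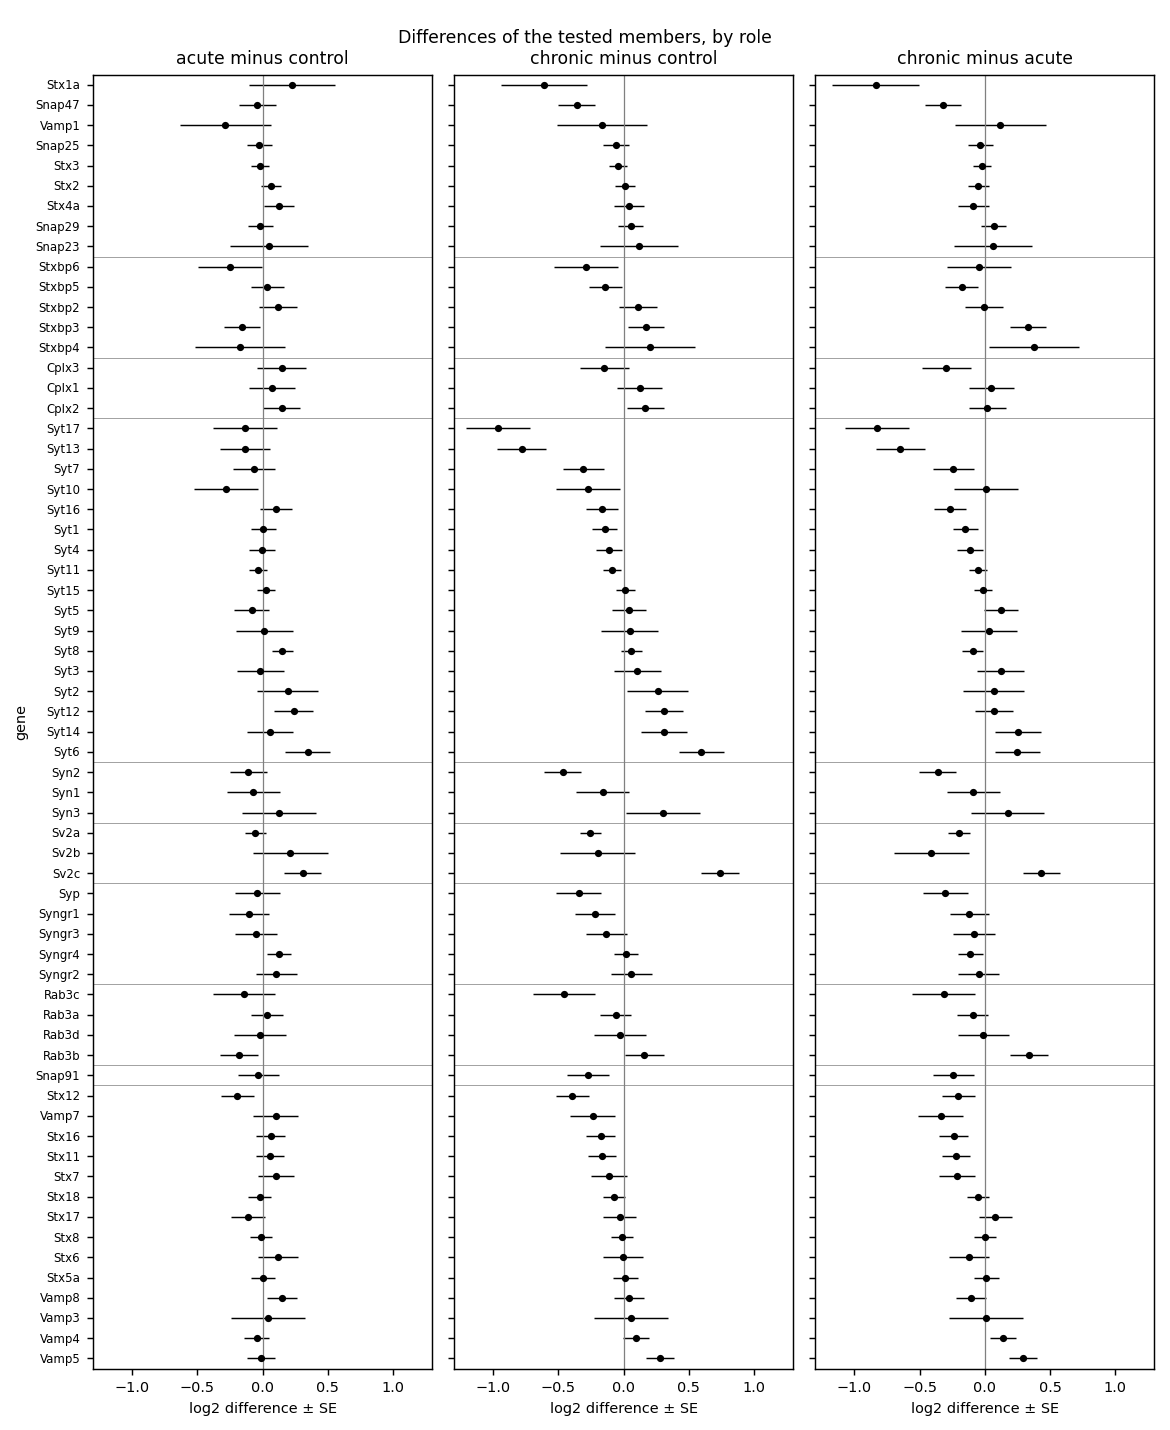
Log2 difference with its standard error (horizontal axes) of each of the 64 tested genes, grouped by role, in the 3 comparisons of 3 arrays against 3. The acute differences run from -0.29 to 0.34, while those of Syt17, Syt13, Stx1a, Sv2c and Syt6 reach farther in chronic against control; chronic against control shares its controls with acute against control.

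At 1 week after acute MPTP 32 of the 64 members were higher and 32 lower than the controls (52.6% and 47.4% of all probe sets were). The largest positive differences were those of Syt6 (0.34 ± 0.17), Sv2c (0.31 ± 0.14), Syt12 (0.24 ± 0.15) and Stx1a (0.23 ± 0.33), each with adjusted p = 1 in limma. On all 4 the acute arrays overlapped the controls, and for Sv2c acute 2 was below control 2 (-0.12). All 13 striatal projection neuron markers also had higher means in the acute group (median 0.29), as had 11 of 14 cortical ones (median 0.28). Of the thalamic, septal and hypothalamic markers 14 of 15 had lower means (median -0.31). The part of tissue make-up in the acute differences was not tested. Without the 3 arrays with the most cortex signal, which leaves acute 3 as the only acute array, Syt6 was at 0.13 and Syt12 at 0.054. Stx1a was at 0.064 with the tissue covariates. Leaving out single arrays took Stx1a from -0.034 without acute 2 to 0.57 without acute 3. Without control 3 Syt6 was at 0.19, Sv2c at 0.19 and Syt12 at 0.12, and without acute 2 Syt12 was at 0.11. The largest negative differences were those of Vamp1 (-0.29 ± 0.35), Syt10 (-0.28 ± 0.24), Stxbp6 (-0.25 ± 0.25) and Stx12 (-0.19 ± 0.13), likewise with adjusted p = 1 in limma. Each of the 4 moved with single arrays left out. Vamp1 ran from -0.61 without acute 3 to -0.11 without control 3, and Syt10 from -0.45 without control 1 to -0.11 without acute 1. Stxbp6 ran from -0.48 without acute 3 to -0.051 without acute 1, and Stx12 from -0.33 without control 2 to -0.11 without control 3. Vamp1 was at -0.11, Syt10 at -0.13 and Stxbp6 at -0.063 with the tissue covariates. Syt10, a synaptotagmin of growth factor secretion in olfactory bulb neurons, read 9.44, 9.87 and 10.02 in controls and 9.17, 9.61 and 9.71 in the acute group, a difference of -0.27, -0.26 and -0.31 on the 3 numbers. Stxbp6, a SNARE-binding protein also called amisyn, read 9.11, 9.18 and 9.55 in controls and 8.64, 8.96 and 9.49 in the acute group. Acute 3 was within the control range for both. Groups that do not overlap numbered 0 higher (2.19% of all probe sets) and 1 lower (1.45%), the Syt11 named above. With the block Syt6, Syt12, Syt10 and Stxbp6 had unadjusted p between 0.0455 and 0.0499, with adjusted p = 0.974 in limma.

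The direct comparison of both regimens, chronic at 8 weeks against acute at 1 week, had 23 members higher and 41 lower (35.9% and 64.1%, against 45.1% and 54.9% of all probe sets). Centring each array on its median moved the split of all probe sets at an unadjusted p under 0.05 from 405 higher and 488 lower to 512 and 365, and that of the members from 4 and 6 to 4 and 4. Again Syt17 (-0.83 ± 0.25) and Syt13 (-0.65 ± 0.19) were low and Sv2c (0.43 ± 0.14) was high in the chronic group, with adjusted p = 0.873 in limma for each. On every replicate number Syt17 was lower in the chronic than in the acute array, by -0.86, -0.94 and -0.68. With the tissue covariates these 3 were at -0.24, -0.23 and 0.17, and without the 3 arrays with the most cortex signal at -0.54, -0.51 and 0.40. Stx1a was at -0.84 ± 0.33, but at -0.14 without those 3 arrays. Leaving them out keeps acute 3 as the only acute array. Snap47 (-0.32 ± 0.14, and -0.19 without acute 2), Syn2 (-0.36 ± 0.14, and -0.19 with the tissue covariates) and Sv2a (-0.20 ± 0.081) were also lower at an unadjusted p under 0.05. Rab3b, a Rab3 protein, read 9.88, 10.06 and 9.79 in the acute and 10.01, 10.52 and 10.22 in the chronic group, a difference of 0.34 ± 0.15 that was 0.20 without chronic 2 and 0.56 with the tissue covariates. Stxbp3, a syntaxin-binding protein of non-neuronal exocytosis, read 8.20, 7.95 and 8.33 and then 8.59, 8.29 and 8.60, a difference of 0.33 ± 0.14. It was the 1 member with its 3 lowest values on control 1, acute 1 and acute 2, the arrays high in cortex genes (1.56%, against 3.12% of all probe sets), and with the tissue covariates it was at 0.15. Vamp5 was at 0.29 ± 0.11. Adjusted p in limma was 0.873 for these genes too. Acute and chronic arrays did not overlap for 8 members, Sv2c higher (1.56%, against 3.52% of all probe sets) and 7 lower (10.9%, against 4.97%). The 7 were Stx7, Sv2a, Syt1, Syt11, Syt13, Syt17 and Vamp7.

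Much of the spread within groups followed the replicate number in the sample titles. For 19 of 64 members (29.7%) the number held over 75% of the within-group sum of squares, and so it did for 28.5% of all probe sets, so the members did not stand out. Syn3 had the largest share, 98.04%, with the order of its 3 arrays the same in each group. Snap23 read 8.90, 8.58 and 9.31 in controls, 8.997, 8.54 and 9.40 in the acute group and 9.17, 8.48 and 9.49 in the chronic group. Array 3 was highest and array 2 lowest in all 3 groups, and Vamp3, a SNARE of recycling endosomes outside neurons as well as in them, had the same order. Its values were 8.86, 8.52 and 9.11 in controls, 8.86, 8.54 and 9.21 in the acute group and 8.94, 8.28 and 9.41 in the chronic group. Cplx1 read 11.06, 11.37 and 11.53 in controls, 11.17, 11.33 and 11.68 in the acute group and 11.20, 11.49 and 11.65 in the chronic group, lowest on array 1 each time. Stxbp4, a syntaxin 4 binding protein, read 8.58, 8.98 and 9.38 in controls, 8.38, 8.72 and 9.33 in the acute group and 8.69, 8.98 and 9.88 in the chronic group, again highest on array 3. Its chronic against acute difference of 0.37 ± 0.35 had an unadjusted p of 0.306 without and 0.00576 with the block (adjusted p = 0.885 and 0.253 in limma), and it was 0.025 without chronic 3, 0.16 without acute 1 and 0.22 with the tissue covariates. These 5 genes and Rab3c are shown for this pattern and were picked after their values were seen.

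**Figure D4:**
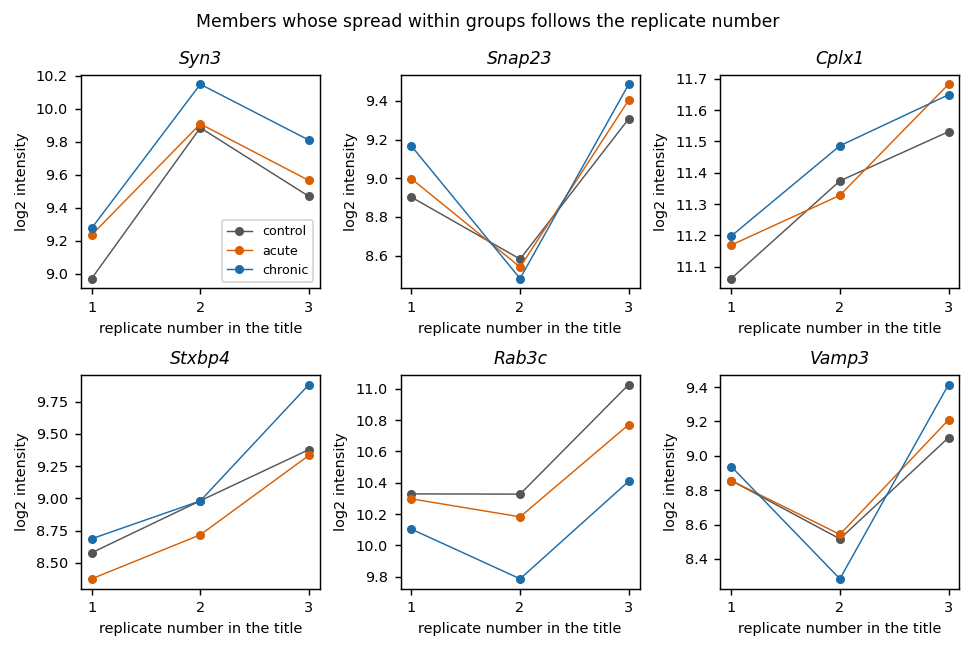
Log2 intensity (vertical axes) against the replicate number in the titles (horizontal axes) for 6 genes; each line joins the 3 arrays of a group, grey for control, orange for acute and blue for chronic. The 3 lines of a panel run nearly parallel, as for Syn3, which is highest on array 2 in each group.

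A second pattern was a high level on control 1, acute 1 and acute 2. Slc17a7, the vesicular glutamate transporter of cortical neurons, reached 12.27, 11.75 and 12.28 on these arrays and no more than 9.66 elsewhere, and Tbr1, a cortical transcription factor, 9.89, 9.12 and 9.65 against at most 7.27. Of the 64 members 8 (12.5%) had their 3 highest values on the same 3 arrays, against 5.35% of all probe sets: Cplx3, Stx1a, Stx3, Stxbp5, Sv2b, Syt1, Syt16 and Syt8. The distance was wide for Stx1a and Sv2b and narrow for others. Cplx3, a complexin of retina and of deep cortical neurons, read 6.87, 6.67 and 6.99 on those arrays and at most 6.48 on the other 6. Stxbp5, the release inhibitor tomosyn, read 9.90, 9.77 and 9.87 there and 9.69 at most elsewhere. For Syt1 the lowest of those arrays was 12.93 and the highest of the others 12.92. On control 3 and acute 3, which were high in Ttr, the main product of choroid plexus (12.56 and 13.37), 5 members had their 2 highest values (7.81%, against 5.86% of all): Rab3c, Stxbp6, Syt4, Syt9 and Vamp1.

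**Figure D5:**
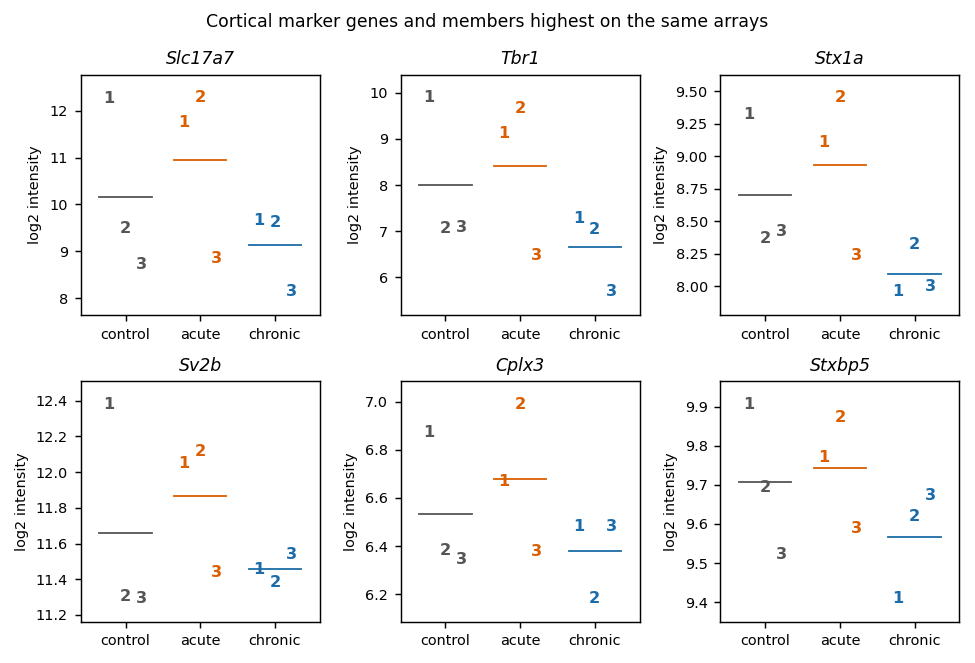
Log2 intensity (vertical axes, a scale of its own for each gene) of the cortical genes Slc17a7 and Tbr1 and of 4 members by group. Digits are arrays by replicate number and lines are group means of 3 arrays; in each panel control 1, acute 1 and acute 2 are the 3 highest.

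Other genes of the release and recycling pathway were taken from 5 lists of 84 tested genes, of which 0 passed in limma in any comparison. In acute against control 0 of the 84 had an unadjusted p under 0.05, where 0.932% of all probe sets did. In chronic against control 12 did, all lower, where 5.38% of all probe sets did (2.62% lower): 5 of SNARE recycling and priming, 3 of the proton pump, 2 of endocytosis, 1 of the active zone and 1 of other vesicle proteins. The direction was most uniform among subunits of the vesicular proton pump, which acidifies vesicles and drives their filling. All 15 tested pump genes had a lower mean in the chronic group, with a median difference of -0.20, where 53.4% of all probe sets were lower. After quantile normalization 14 of 15 were, and with the tissue covariates 13 of 15, with a median of -0.11. Atp6v1a, the catalytic subunit, was at -0.37 ± 0.12 (-0.17 with the tissue covariates), and Atp6v0b at -0.31 ± 0.12. Among 16 genes of SNARE recycling and vesicle priming 11 were below and 5 above control (median -0.15), or 12 and 4 with the tissue covariates (median -0.12). Cadps2, a priming factor of dense-core vesicles, was at -1.09 ± 0.32 (-0.60 with the covariates) and Rab27b, a small GTPase of secretory vesicles, at -0.36 ± 0.12. Endocytosis genes were lower in 17 of 21 (median -0.11), among them Amph, amphiphysin, at -0.32 ± 0.098, and Dnajc6, the uncoating factor auxilin, at -0.25 ± 0.094. With the covariates 15 of 21 were lower (median -0.056), Amph was at -0.13 and Dnajc6 at -0.080.

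Active zone genes were lower in 12 of 17 (median -0.071), with Ppfia2, a liprin scaffold, at -0.35 ± 0.11 and Unc13c, a Munc13 priming protein, at 0.52 ± 0.26, which was 0.28 without control 1 and -0.032 with the tissue covariates. With the covariates 10 of 17 were lower (median -0.032) and Ppfia2 was at -0.19. Of 15 other vesicle proteins 10 were lower (median -0.032), or 8 after quantile normalization, centring of the arrays or with the tissue covariates, with Sncb, beta-synuclein, at -0.38 ± 0.13 and Slc17a8, the glutamate transporter of cholinergic and some other neurons, at 0.34 ± 0.15. These were at -0.13 and 0.077 with the covariates. All these genes had adjusted p between 0.9 and 0.94 in limma.

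In chronic against acute the pump list was lower in 14 of 15 genes (median -0.12, with Atp6v0b at -0.36 ± 0.12 and Atp6v1e1 at -0.28 ± 0.11), or in 9 of 15 with the tissue covariates. Doc2a, a calcium-binding protein of spontaneous and asynchronous release, was at -0.90 ± 0.34, Cadps2 at -0.87 ± 0.32, Sncb at -0.34 ± 0.13, Amph at -0.26 ± 0.098, and Sh3gl3, an endophilin, at -0.22 ± 0.097, or -0.15 without chronic 2. With the tissue covariates Doc2a was at -0.23, Cadps2 at -0.26, Sncb at -0.14 and Amph at -0.085. Slc30a3, the zinc transporter of glutamatergic vesicles, is also on the cortical marker list. It was at -1.11 ± 0.54 and at -0.70 without acute 2. Without the 3 arrays with the most cortex signal, which leaves only acute 3 of its group, it was at 0.022. Ppfia2 was at -0.21 ± 0.11 and Unc13c at 0.48 ± 0.26, or -0.073 and -0.083 with the tissue covariates, and Unc13c was at 0.27 without acute 2. These 10 genes had adjusted p = 0.873 in limma. In the other lists 12 of 16 recycling and priming genes, 16 of 21 endocytosis genes, 10 of 15 other vesicle proteins and 7 of 17 active zone genes were lower. These numbers were 13 of 16, 12 of 21, 12 of 15 and 10 of 17 with the tissue covariates. That fit took the endocytosis median from -0.12 to -0.039 and that of the active zone from 0.017 to -0.0040. In acute against control the genes with the smallest p per list were Ppfia1 (-0.10), Ppfia2 (-0.14), Cadps (-0.16), Rab27b (-0.12), Slc17a8 (0.27), Synpr (0.30), Sh3gl3 (0.16), Dnm3 (-0.17), Atp6ap2 (-0.16) and Atp6v1b2 (-0.089), each with adjusted p = 1 in limma. Several of these were smaller without 1 array. Without control 1 Ppfia2 was at -0.059, Cadps at -0.062 and Atp6ap2 at -0.036. Without control 3 Dnm3 was at -0.067, Synpr at 0.15 and Slc17a8 at 0.17, and without acute 3 Atp6v1b2 was at -0.049. The acute group was lower for 9 of 15 pump genes, 8 of 16 recycling and priming genes, 14 of 21 endocytosis genes, 9 of 17 active zone genes and 5 of 15 other vesicle proteins.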

How the data were processed

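Total RNA of mouse striatum was measured on 9 single-colour Affymetrix arrays; a Qiagen RNeasy kit and the Ambion WT Expression kit with Affymetrix labelling were used, per the labels' protocols. The deposited values are log2 intensities of probe sets, a scale read from the values (4.27 to 14.43, array medians 6.85 to 6.90); background correction, normalization and summary are not given in the sources used here, and the values were used as deposited. No 2 arrays shared more than 6.34% of values. Some members held the same value on several arrays: Stx8 was at 8.1256 and Syt15 at 6.93791 on every chronic array. The origin of such repeats was not tested. Groups came from the sample titles. Of 28815 probe sets, 21780 had 1 gene symbol, 1605 several and 5430 none in the platform annotation; all 66 members' gene IDs were found in the RefSeq table of GRCm38.p6 with the same symbol. Stxbp4 alone had 2 probe sets.

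Probe sets with 1 symbol and a mean at or above the 25th percentile of all (5.63) were fitted with limma 3.58.1 in R 4.3.3, with a mean per group over all 9 arrays, moderated by eBayes, two-sided, and adjusted by Benjamini-Hochberg over the 17480 tested in each comparison. Errors of differences are standard errors of that fit. The code was tested on simulated data. Alternatives were other filters and scalings, fits of 2 groups, a trended robust prior, tissue covariates, left-out arrays, and the replicate number as a block. Replicate numbers were taken to pair arrays because of the values, the labels giving no reason: deviations from group means correlated at 0.155 to 0.669 in all 9 same-numbered pairs and at -0.603 to 0.182 in the 18 others. Deviations cancel within each group, so high values in same-numbered pairs push those of the others down, and the 18 add no separate support. The p values with the block rest on this pairing, which was read from the same data. Full statistics were given for members with an unadjusted p under 0.05 or, where fewer than 4 had it in a direction, the 4 largest differences, and for 2 genes of each pathway list by smallest p; Rab3c, Syn3, Syp, Stxbp4, Syt11 and, against control after chronic MPTP, Stx1a were added after their values were seen. Members, lists, tests and alternatives were chosen with earlier results of these data known.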

Additional observations from a re-analysis of the deposited data

How the results depend on the processing

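No member and no gene of the pathway lists passed in any alternative. The median of the members stayed between -0.023 and 0.028 in acute against control, -0.075 and -0.010 in chronic against control and -0.074 and -0.028 in chronic against acute. Leaving out 1 array gave -0.0085 to 0.023, -0.075 to -0.022 and -0.074 to -0.028. Of 65 single-gene differences, 56 kept their sign in every alternative. Other filters, the prior, fits of 2 groups and the block cannot turn a sign, since they leave a difference as it is. Without the 3 arrays high in cortex genes, a fit with 1 acute array that is assumed to vary like the other groups, the sign turned for Stx1a (-0.16), Stxbp6 (0.13) and Vamp1 (0.10) in acute against control and for Stxbp4 (-0.15) and Slc30a3 (0.022) in chronic against acute. Tissue covariates turned Unc13c to -0.032 (chronic against control) and -0.083 (chronic against acute). Together with the replicate block, an alternative chosen after seeing the data, they gave Unc13c -0.0095 and -0.097, and in acute against control Stx1a -0.0059 and Rab27b 0.040. Quantile normalization turned Syt11 to 0.016 in acute against control. Stx1a ran from -0.034 to 0.57 there with 1 array left out. The causes were not tested.

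Pairing by replicate number, as a block, changed no call: 0 members passed in each comparison with it. Each group has 1 array of each number, so the block cannot change a difference or a median of differences, only the standard errors and p. The count of members at an unadjusted p under 0.05 depended more on the setting. So did the count over all 17480 probe sets tested, given here in brackets. For chronic against control the count of members was 9 (941), 16 with the block (2214) and 4 with tissue covariates (332). It was 5 without the 2 arrays high in choroid plexus genes (424). With 1 array left out it ran from 7 without control 3 (501) to 13 without chronic 2 (1181). For chronic against acute it was 10 (893), 18 with the block (2394) and 1 with tissue covariates (480). It was 4 without acute 2 (416) and 5 without chronic 3 (552). For acute against control it was 0 (163), 4 with the block (748) and 1 with tissue covariates (215) or quantile normalization (170). It was 4 without control 2 (424), and 2 without control 1 (456) or acute 3 (413).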
